A study of Mus musculus with 23 samples.

Results

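The immediate-early transcription factor genes described here are Fos, Fosb, Jun, Junb, Jund, Egr1, Atf3, Klf4, Klf6 and Nr4a1, 10 of the 32285 genes counted in every library. They were chosen by name as the gene rows carrying these symbols, and each symbol matched 1 row in all 11 gene-expression libraries. The series holds 23 samples of mouse bone marrow KSL cells (c-Kit positive, Sca1 positive, lineage negative), the sorted population that contains hematopoietic stem cells and multipotent progenitors. The study asks how the loss of Jarid2 compares with the loss of Ezh2, the methyltransferase of Polycomb repressive complex 2 that Jarid2 can join. In addition to the 11 droplet libraries of 3' transcript tags, 6 samples are antibody libraries of the same baseline cells and 6 are H3K27me3 CUT&Tag samples, which were not analysed here.

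At baseline, untransplanted mice 2 months old gave 1 male library (replicate 1) and 1 female library (replicate 2) of each of the Control, Ezh2 KO and Jarid2 KO groups. After transplantation, donor KSL cells were taken 18 weeks after 500000 CD45.2 marrow cells of the tested genotype went into lethally irradiated recipients with 500000 CD45.1 competitors, and the libraries are 1 Control, 2 Ezh2 KO and 2 Jarid2 KO, with no sex given. All groups, Control included, carry the label Mx1-Cre, in which an interferon-responsive promoter drives Cre in blood and other cells, and the knockout groups carry floxed alleles (Ezh2fl/fl or Jarid2fl/fl). No label says whether the Control group carries floxed alleles. The labels do not say how many mice a library pools, so the p-values below measure the spread between these libraries. Kept UMIs (counted transcript molecules) ran from 83921210 to 126527222 per library at baseline and from 67618707 to 111514122 after transplantation. Levels are given as CPM, UMIs per 1000000 of a library's or cell group's total.

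The libraries differed in several ways that touch the results. Ezh2 transcript was at 163 and 148 CPM in the baseline Ezh2 KO libraries against 209 and 193 CPM in Control, and at 38.8 and 47.0 CPM in the transplanted Ezh2 KO libraries against 185 CPM in the transplanted Control. Jarid2 transcript was not lower in the libraries labelled Jarid2 KO, at 215 and 205 CPM against 159 and 150 CPM in baseline Control, and at 57.3 and 57.1 CPM against 38.6 CPM after transplantation. A 3' tag outside the deleted part does not check a deletion, so the Jarid2 KO groups rest on their labels. Among kept cells, those with Y-linked UMIs and no Xist UMI made up 807 of 4354 in the transplanted Control, 1393 of 5069 and 1620 of 5032 in Jarid2 KO, and 4524 of 6149 and 4031 of 5867 in Ezh2 KO, so that sex and genotype cannot be told apart there without the comparison of male cells given below. Barcodes over the mitochondrial limit made up 2.82% to 5.82% of baseline and 25.7% to 43.4% of transplant libraries. Any pair of libraries shared at most 31 cell barcodes. The sort genes Kit, Ly6a and Ptprc were detected in every library.

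Immediate-early genes are transcribed within minutes of a signal without new protein synthesis, from promoters held ready for serum response factor, CREB and related factors. Fos and Fosb proteins pair with Jun, Junb or Jund to form AP-1, while Egr1 and the Klf proteins are zinc-finger factors, Atf3 is a stress-induced member of the ATF/CREB family and Nr4a1 is an orphan nuclear receptor. In hematopoietic stem cells, Egr1, Junb and Nr4a1 are known for restraining proliferation. The same genes are also known to be induced by tissue dissociation and cell sorting.

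The promoters of 5 members that carry motifs shared among the members are shown, and that of Atf3, which holds 1 match, is not. Promoter letters were read for 9 of the 10 members from the RefSeq table (GRCm38.p6, the mm10 build), and Egr1 was left out. Each line gives the 250 bases before the gene's start, 5' to 3' on the gene's strand, in lower case with matched motifs in capitals. The motifs in capitals are the CRE half-site TGACG (or CGTCA on the other strand), the EGR motif GCGNGGGCG (or its reverse complement) and TATAAA.
Fos, chr12:85473640-85473889, plus strand: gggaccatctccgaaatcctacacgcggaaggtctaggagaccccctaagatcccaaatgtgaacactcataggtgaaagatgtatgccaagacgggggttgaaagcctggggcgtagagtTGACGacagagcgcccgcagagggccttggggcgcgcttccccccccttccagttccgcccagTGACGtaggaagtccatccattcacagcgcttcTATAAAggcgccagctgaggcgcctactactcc
Fosb, chr7:19310046-19310295, minus strand: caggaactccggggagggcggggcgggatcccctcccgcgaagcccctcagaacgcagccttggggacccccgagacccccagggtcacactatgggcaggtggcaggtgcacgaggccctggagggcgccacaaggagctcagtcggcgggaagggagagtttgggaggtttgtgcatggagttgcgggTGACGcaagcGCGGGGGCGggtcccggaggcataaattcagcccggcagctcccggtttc
Junb, chr8:84978749-84978998, minus strand: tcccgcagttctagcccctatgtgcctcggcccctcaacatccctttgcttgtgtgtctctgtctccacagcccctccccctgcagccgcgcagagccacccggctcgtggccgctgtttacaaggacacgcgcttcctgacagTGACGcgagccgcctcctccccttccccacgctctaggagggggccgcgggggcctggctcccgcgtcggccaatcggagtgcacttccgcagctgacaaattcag
Nr4a1, chr15:101266596-101266845, plus strand: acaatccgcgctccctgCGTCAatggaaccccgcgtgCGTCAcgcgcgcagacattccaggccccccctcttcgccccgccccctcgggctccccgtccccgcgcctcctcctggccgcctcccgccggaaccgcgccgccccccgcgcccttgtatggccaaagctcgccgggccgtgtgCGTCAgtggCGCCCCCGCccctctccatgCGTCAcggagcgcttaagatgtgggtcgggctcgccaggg
Klf4, chr4:55532476-55532725, minus strand: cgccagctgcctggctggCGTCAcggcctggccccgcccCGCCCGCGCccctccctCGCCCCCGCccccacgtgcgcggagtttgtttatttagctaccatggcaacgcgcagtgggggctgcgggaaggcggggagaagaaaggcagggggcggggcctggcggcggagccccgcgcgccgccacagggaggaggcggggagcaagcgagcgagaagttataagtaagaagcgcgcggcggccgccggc

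The CRE half-site was in 6 of the 9 promoters (Fos, Fosb, Junb, Nr4a1, Klf4 and Atf3), against 17.8% of 32851 promoters of the same length, and this motif was chosen after the letters had been read. Nr4a1 held it 4 times and Fos held it 2 times, the nearer one of Fos 66 to 62 bases before the start. The EGR motif was in Fosb, Nr4a1 and Klf4, with 2 matches in Klf4, against 4.70% of all promoters. TATAAA was in Fos, 33 to 28 bases before the start, against 7.59% of all promoters. The full CRE TGACGTCA (1.55% of all promoters), the AP-1 motif TGANTCA (6.75%) and the CArG box bound by serum response factor (1.47%), all searched on both strands, were not found in these windows. The Egr1 promoter was not searched. A full CRE would also hold the half-site.

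Over all kept cells, Jund, Jun, Junb and Fosb were measured from many UMIs, and Atf3 from few. Across the 11 libraries the total was 282201 UMIs for Jund, 251273 for Jun, 96222 for Junb, 91738 for Fosb, 56966 for Fos, 35417 for Klf6, 33596 for Egr1, 7393 for Nr4a1, 3548 for Klf4 and 733 for Atf3. Junb lay between 92.5 and 125 CPM at baseline and between 52.8 and 86.8 CPM after transplantation, Jund between 263 and 362 and between 149.8 and 258 CPM, and Klf6 between 32.6 and 43.2 and between 20.7 and 33.9 CPM. The baseline and transplant ranges of Junb, Jund, Nr4a1 and Atf3 did not overlap, those of Klf6 did by 1 library, and those of the other members overlapped. Jun reached its highest value, 362 CPM, in a transplanted Ezh2 KO library, against at most 280 CPM at baseline. Age, transplantation and counting software go together between the experiments, and the share of all genes without overlap was not counted. The plot of levels by library shows each value.

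**Figure D1:**
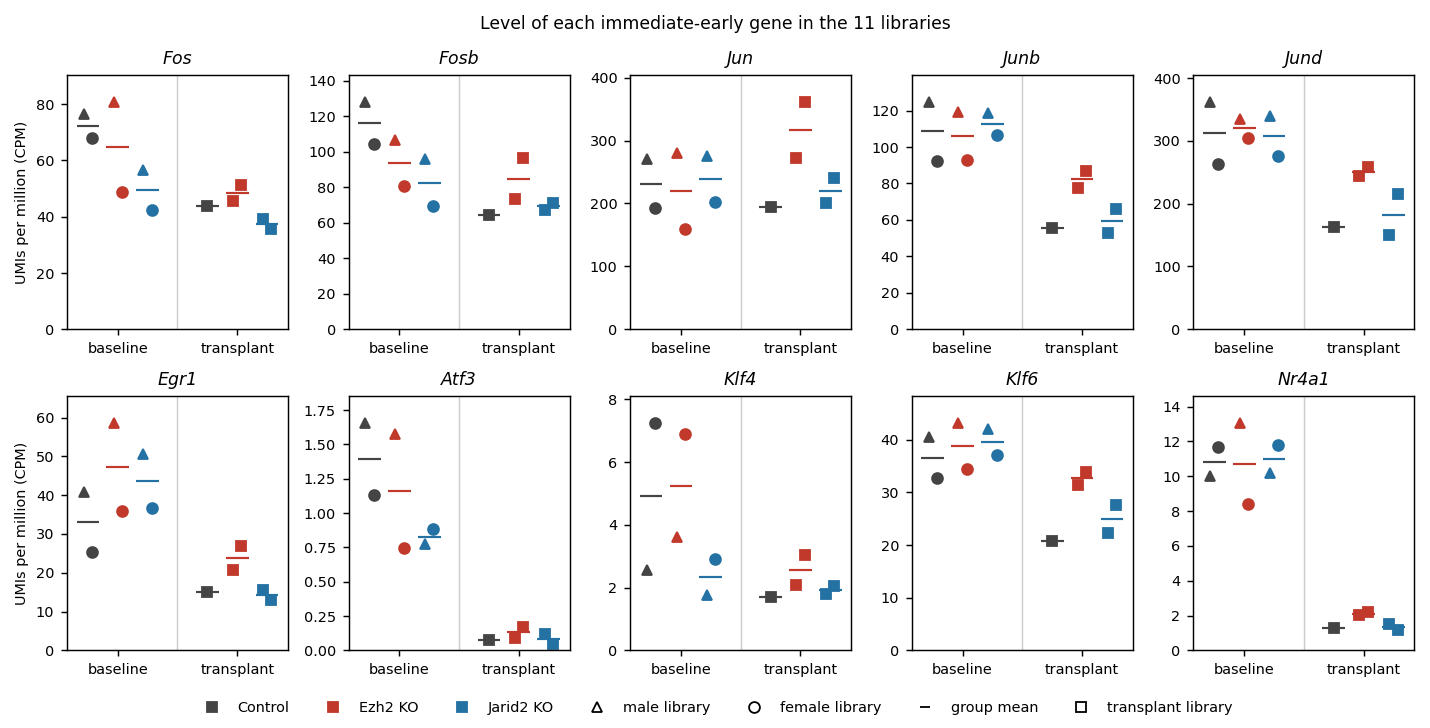
Level of each of the 10 genes in CPM (vertical axis, from 0) in the 6 baseline and 5 transplant libraries. Colour gives the genotype, triangles are male and circles female baseline libraries, squares are transplant libraries, and short lines are group means. Female baseline libraries lie below male ones of the same genotype for 7 of the 10 genes, and both transplanted Ezh2 KO libraries lie above the transplanted Control for 10 of 10.

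The baseline comparison asks how these genes differ between genotypes in KSL cells of untransplanted mice. Egr1, whose product activates early response targets, was the 1 member that rose in Ezh2 KO, and no member passed the test in Jarid2 KO. Egr1 was at 40.9 CPM in the male and 25.4 CPM in the female Control library, at 58.6 and 36.0 CPM in Ezh2 KO, and at 50.5 and 36.7 CPM in Jarid2 KO. Within each sex both knockouts were above Control, and across sexes the groups overlapped. The Egr1 difference of Ezh2 KO from Control was 0.56 ± 0.07 on the log2 scale (SE, n = 2 libraries per group; edgeR quasi-likelihood test with sex in the model, Benjamini-Hochberg adjusted p = 0.0350). The call was lost without either Control library, without the male Ezh2 KO library and without sex in the model. Of all genes tested, 3.47% were called in this contrast, and the median difference was 0.02 over the 10 members and -0.00 over all genes.

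Marker sums of several cell types moved with the Ezh2 KO baseline libraries. The 8 B markers, all of them detected, summed to 2940 and 1578 CPM there, against 1032 and 309 CPM in Control and 446 and 436 CPM in Jarid2 KO. Stem markers summed to 1090 and 1255 CPM in Ezh2 KO against 1364 and 1355 CPM in Control, and Cycling markers to 1447 and 1179 against 998 and 880 CPM, both without overlap. For T and innate lymphoid and Neutrophil markers, each Ezh2 KO library lay above both Control libraries, and for Megakaryocyte and Monocyte and macrophage markers and the sort genes each lay below. The part of these lists in the Egr1 result was not tested. In a sum over cells, fewer cells of a type and less RNA per cell cannot be told apart.

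In baseline Jarid2 KO the differences from Control ran from -0.93 for Klf4 to 0.44 for Egr1. Fosb, the AP-1 partner with the smallest error, was at 95.9 and 69.4 CPM in Jarid2 KO against 128 and 104 CPM in Control, a log2 difference of -0.48 ± 0.06 (SE; edgeR adjusted p = 0.108). Both Jarid2 KO libraries lay below both Control libraries. Fos was at 56.6 and 42.5 CPM in Jarid2 KO against 76.5 and 67.8 CPM in Control, without overlap, a difference of -0.54 ± 0.14 (edgeR adjusted p = 0.312). The edgeR test called 0.0330% of all genes here, 2095 genes had an unadjusted p under 0.05, and DESeq2 called 4 of the 10 members, 1 higher and 3 lower, and 1.38% of all genes, 121 higher and 129 lower. Stem markers summed to 1574 and 1608 CPM in Jarid2 KO against 1364 and 1355 CPM in Control, and T and innate lymphoid markers to 79.3 and 79.5 against 37.0 and 29.7 CPM, both without overlap. Lymphoid-primed and Neutrophil markers were also higher in both Jarid2 KO libraries, and Monocyte and macrophage markers lower. The part of these lists in the differences from Control was not tested.

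Klf4, a factor of monocyte and dendritic differentiation, separated the knockouts at baseline. It was at 1.78 CPM in the male and 2.92 CPM in the female Jarid2 KO library, against 3.60 and 6.89 CPM in Ezh2 KO and 2.56 and 7.25 CPM in Control. The Jarid2 KO libraries were both below both Ezh2 KO libraries. The difference of Jarid2 KO from Ezh2 KO was -1.16 ± 0.21 (SE, n = 2 per group; edgeR adjusted p = 0.0442), and 5.91% of all genes were called. It was not called when any of the 4 knockout libraries was left out, or without sex in the model. An unnamed cluster with Klf4 among its 10 leading genes held 679 cells (7.37%) of the female Ezh2 KO library and 28 (0.397%) of the female Jarid2 KO library, and 1 and 0 cells of the male ones. Stem markers, at the values above, and Dendritic markers, at 375 and 326 CPM in Jarid2 KO against 269 and 320 CPM in Ezh2 KO, were higher in both Jarid2 KO libraries, as were T and innate lymphoid, Megakaryocyte, Endothelial and stromal markers and the sort genes. B, Cycling, Basophil and mast and Neutrophil markers were lower. The part of these cells and lists in the Klf4 difference was not tested.

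The other genes of the pathway changed little at baseline. In Ezh2 KO, 3 of 21 tested other immediate-early genes were higher, Arc by 1.91 ± 0.32, Klf2 by 0.78 ± 0.07 and Rhob by 0.47 ± 0.06 on the log2 scale (SE). Of 17 other AP-1 and ATF genes Maf was higher (1.01 ± 0.15), and of 23 feedback genes the phosphatase gene Dusp2 was higher (0.45 ± 0.05), while none of 18 upstream kinases and SRF partners was called. In Jarid2 KO none of these 4 lists had a called gene. The shares of all genes called are the 3.47%, 0.0330% and 5.91% given above. Between the knockouts, Klf2 (-0.66 ± 0.07), Dusp2 (-0.47 ± 0.05) and Gadd45b (-0.50 ± 0.09) were lower in Jarid2 KO than in Ezh2 KO, and Nab2, a corepressor of Egr proteins, was higher (0.50 ± 0.09). In all, 1 other immediate-early gene and 4 feedback genes were lower, and 1 feedback gene was higher.

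The baseline libraries also allow males and females to be compared over 3 genotypes. Female libraries held less of most members: 9 of 10 had a negative fitted difference, 7 were lower in the female library of every genotype, and 5 (Jun, Junb, Jund, Egr1 and Klf6) did not overlap between the sexes. The shares of all genes meeting any of these criteria are not given here, so the counts describe the members only. Jun, the AP-1 core subunit, was at 271, 280 and 275 CPM in the male Control, Ezh2 KO and Jarid2 KO libraries and at 192, 159 and 202 CPM in the female ones. The 3 male Jun values lay close together and well above the female ones. Its difference was -0.58 ± 0.09 (female minus male, SE, n = 3 per sex; edgeR adjusted p = 0.0630), and the median over the members was -0.35 against 0.00 over all genes.

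Egr1 was the 1 member that passed the test between sexes, with edgeR calling 0.600% of all genes. Its mean was 50.0 ± 8.87 CPM in males and 32.7 ± 6.32 CPM in females (SD, n = 3), a difference of -0.61 ± 0.06 (SE; edgeR adjusted p = 0.0340), lower in the female library of 3 of 3 genotypes. The call was lost when either Control library was left out (highest adjusted p over the alternatives 0.0592). DESeq2 called 8 of the 10 members, 7 lower and 1 higher in females, and 5.37% of all genes, 547 lower and 430 higher.

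Klf4 went the other way. It was higher in the female library of 3 of 3 genotypes, at 7.25, 6.89 and 2.92 CPM against 2.56, 3.60 and 1.78 CPM in males, a difference of 1.06 ± 0.17 (SE; edgeR adjusted p = 0.0685). The sexes overlapped, since the female Jarid2 KO value lay below the male Ezh2 KO value. A cluster left unnamed, with Klf4 among its 10 leading genes although Klf4 did not form the clusters, moved with these values. It held 8.31%, 7.37% and 0.397% of kept cells in the female Control, Ezh2 KO and Jarid2 KO libraries and 0, 1 and 0 cells in the male ones. Klf4 was at 44.2 and 44.7 CPM in this cluster in the female Control and Ezh2 KO libraries, with 0 UMIs in its 28 female Jarid2 KO cells. Its part in the Klf4 differences was not tested. Nr4a1 was lower in the female library of 1 of 3 genotypes, at 10.6 ± 1.93 CPM in females and 11.1 ± 1.71 CPM in males (SD, n = 3).

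Of the related genes, Btg2 (-0.61 ± 0.05), Zfp36 (-0.52 ± 0.04) and Dusp2 (-0.41 ± 0.04), which encode an antiproliferative factor, an mRNA-destabilising protein and a MAP kinase phosphatase, were lower in females, and Socs3, a cytokine feedback gene, was higher (0.69 ± 0.07). Those were 1 of 21 other immediate-early genes and 3 of 23 feedback genes. The 13 heat shock genes, all detected, summed to 4669 to 4974 CPM in male and 5230 to 5540 CPM in female libraries, without overlap, and none of them passed the test. The 8 Erythroid markers summed to 86.1 to 146 CPM in males and 166 to 453 CPM in females, and the 8 Myeloid markers to 443 to 562 and 570 to 834 CPM, also without overlap. The part of these lists in the sex difference was not tested, and the labels give no processing day.

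**Figure D2:**
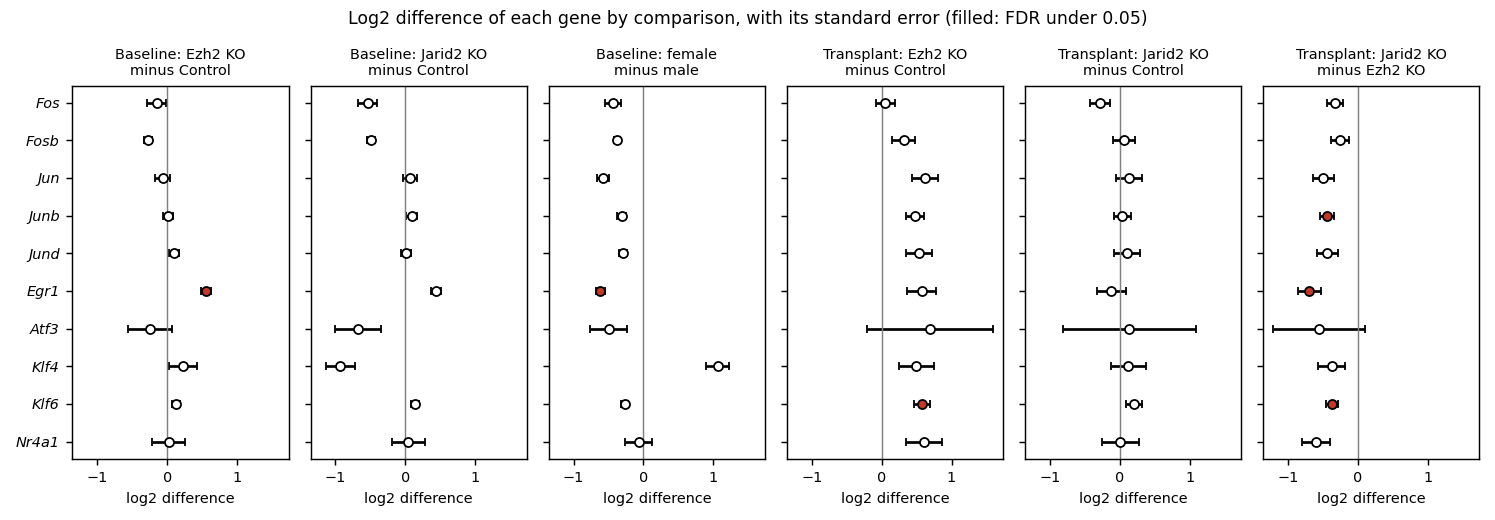
Log2 difference of each gene (horizontal axis) with its standard error in 6 comparisons of whole libraries. Filled points passed an FDR of 0.05. Female minus male values lie below 0 for 9 of 10 genes, and transplanted Ezh2 KO minus Control values lie above 0 for 10 of 10.

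After transplantation all members were higher in Ezh2 KO than in Control by their fitted value, and Klf6 was the 1 that passed the test. Klf6 encodes a broadly expressed zinc-finger factor. It was at 31.5 and 33.9 CPM in Ezh2 KO, 22.2 and 27.5 CPM in Jarid2 KO and 20.7 CPM in the 1 Control library, whose 95% exact Poisson interval is 19.6 to 21.8 CPM and covers counting error only. Both Ezh2 KO libraries were above the other 3. The difference from Control was 0.58 ± 0.11 (SE; edgeR adjusted p = 0.0431), with the lone Control assumed to vary like the knockout libraries.

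Positive values for 10 of 10 members compare with 51.3% of all genes, and the members' median of 0.56 with 0.01 over all genes, while 4.84% of all genes were called. The members were measured in the same libraries, so the 10 values are not independent. Jun was at 273 and 362 CPM against 194 CPM in Control, Jund at 243 and 258 against 163 CPM, and Egr1 at 20.6 and 26.9 against 15.03 CPM. Fos differed least, at 45.6 and 51.2 CPM against 43.9 CPM. The Klf6 call was lost when either Ezh2 KO library was left out, with a stricter cell filter, and when genes under 10 CPM were dropped.

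Cell composition, sex and barcode quality moved with this contrast. Lymphoid-primed-like cells made up 16.4% and 14.3% of kept cells in Ezh2 KO, 4.23% in Control and 5.70% and 6.24% in Jarid2 KO, and Stem-like cells 29.9% and 33.2% against 23.4% in Control and 24.1% and 25.0% in Jarid2 KO. The 8 B markers, all detected, summed to 545 and 420 CPM in Ezh2 KO, 46.0 CPM in Control and 78.6 and 97.0 CPM in Jarid2 KO. The 8 Myeloid markers ran the other way, at 8231 and 8590 CPM in Ezh2 KO, 10793 CPM in Control and 12929 and 17142 CPM in Jarid2 KO, and so also separated the knockouts. Dendritic markers did the same, at 238 and 281 CPM in Ezh2 KO, 323 CPM in Control and 424 and 609 CPM in Jarid2 KO. Lymphoid-primed markers summed to 1131 and 1093 CPM in Ezh2 KO, 442 CPM in Control and 819 and 1043 CPM in Jarid2 KO, and Basophil and mast, Erythroid and T and innate lymphoid markers were also highest in both Ezh2 KO libraries. For Cycling markers each Ezh2 KO library lay above Control, and Megakaryocyte markers were lower in both Jarid2 KO libraries than in the other 3. Monocyte and macrophage markers were lowest in Ezh2 KO, at 215 and 223 CPM against 240 CPM in Control and 231 and 306 CPM in Jarid2 KO. The sort genes, at 299 and 333 against 340 CPM, and Neutrophil markers, at 27.26 and 18.6 against 27.30 CPM, also lay below Control in both Ezh2 KO libraries. Barcodes over the mitochondrial limit made up 25.7% and 27.4% in Ezh2 KO, 43.4% in Control and 36.6% and 37.4% in Jarid2 KO. An unnamed cluster of few UMIs per cell (a median of 1351 in Control) held 2.49% and 2.03% of kept cells in Ezh2 KO, 11.1% in Control and 10.7% and 4.93% in Jarid2 KO. The part of cell composition and of barcode quality in the differences from Control and between the knockouts was not tested. Among male cells only, edgeR called no member (319 of all genes were called and 2059 had an unadjusted p under 0.05), 8 of the 9 members tested were still positive, and Klf6 differed by 0.40 (edgeR adjusted p = 0.241).

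Transplanted Jarid2 KO libraries lay close to the Control library. No member was called, edgeR calling 0.336% of all genes, with 1313 genes at an unadjusted p under 0.05 and DESeq2, which called 1.24% of all genes, likewise calling no member. The fitted differences ran from -0.28 for Fos to 0.21 for Klf6, with a median of 0.08. Nr4a1 was at 1.504 and 1.19 CPM against 1.30 CPM, so the Control value lay between the Jarid2 KO values, while for Klf6 both Jarid2 KO values lay above it.

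Against transplanted Ezh2 KO, the Jarid2 KO libraries were lower in Junb, Egr1 and Klf6. Junb, an AP-1 subunit, was at 52.8 and 66.0 CPM in Jarid2 KO against 77.6 and 86.8 CPM in Ezh2 KO, a difference of -0.44 ± 0.10 (SE, n = 2 per group; edgeR adjusted p = 0.0385). Egr1 was at 15.5 and 13.0 CPM against 20.6 and 26.9 CPM, a difference of -0.69 ± 0.17 (edgeR adjusted p = 0.0456). The Klf6 difference was -0.37 ± 0.09 (edgeR adjusted p = 0.0475). For 9 of 10 members both Ezh2 KO libraries were above both Jarid2 KO libraries, Atf3 being the exception. The share of all genes in this order was not counted. By the test, 12.0% of all genes were called. Among male cells only none of the 3 was called, at -0.39 for Junb (edgeR adjusted p = 0.0515), -0.68 for Egr1 (adjusted p = 0.0930) and -0.32 for Klf6 (adjusted p = 0.113). None was called under a stricter cell filter either, or when the fit was limited to genes above 10 CPM. Without the second Ezh2 KO library no member was called and without the first only Egr1 was. Without the first Jarid2 KO library the Junb and Klf6 calls were lost, and without the second the Egr1 call.

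Related genes moved in both directions. In transplanted Ezh2 KO, the cAMP-response repressor gene Crem (1.23 ± 0.16), the phosphatase gene Dusp6 (0.76 ± 0.10) and Ier5 (0.73 ± 0.15) were higher than in Control, and Gadd45g (-1.02 ± 0.15) and Nab2 (-0.73 ± 0.13) were lower. In all, 3 of 21 other immediate-early genes were higher and none lower, 1 of 17 other AP-1 and ATF genes was higher, and 2 of 23 feedback genes were higher and 2 lower, beside the 4.84% of all genes called. Nab2 was higher in Jarid2 KO than in Ezh2 KO (1.25 ± 0.11), as were Spry2 (0.91 ± 0.20) and Cebpd (0.89 ± 0.14), and Crem (-1.06 ± 0.12) and Csrnp1 (-0.55 ± 0.12) were lower. No gene of these 4 lists was called by edgeR in Jarid2 KO against Control.

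Whether a genotype difference itself changed between the experiments was tested by an interaction term over all 11 libraries. No member passed in any of the 3 contrasts, with edgeR or with DESeq2. For Ezh2 KO against Control edgeR called 0.317% of all genes, with 1721 genes at an unadjusted p under 0.05, and DESeq2 called 1.44%. For Jarid2 KO against Control edgeR called 0% of all genes, with 964 at an unadjusted p under 0.05 and 58 (0.306%) called by DESeq2. For the 2 knockouts edgeR called 2.46% of all genes, with 3033 genes at an unadjusted p under 0.05, and DESeq2 called 4.77%. The interaction estimates of Ezh2 KO were positive for 10 of 10 members, with Egr1 at 0.01, Fosb at 0.58 and Jun at 0.66. The share of all genes with a positive estimate is not given here. The members were measured in the same libraries, so these 10 values are not independent either. Crem was the 1 gene of the pathway lists that passed, with a change of -0.83 ± 0.15 between the knockouts (SE; edgeR adjusted p = 0.0317). The baseline and transplant levels themselves were not tested, since age, transplantation and counting software go together. Side by side, Nr4a1 was at 8.40 to 13.1 CPM at baseline and 1.19 to 2.18 CPM after transplantation, and Atf3 at 0.745 to 1.66 and 0.0467 to 0.174 CPM.

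At baseline, antibody counts of the same cells place them in 4 surface gates that do not use transcripts. The gates named after the usual stem and progenitor phenotypes are HSC (CD150 high, CD48 low), MPP2 (CD150 high, CD48 high), MPP3 (CD150 low, CD135 low) and MPP4 (CD150 low, CD135 high), with high above the 0.667 quantile and low below the 0.333 quantile of a library's cells. Stem markers summed to a median of 2372 CPM in HSC, 506 in MPP2, 999 in MPP3 and 1053 CPM in MPP4. B markers summed to 38.4, 3997, 2494 and 134 CPM, and B-like cells made up 7.59% to 86.8% of the MPP2 gate by library. Cycling markers summed to 527, 2016, 1481 and 1023 CPM, and Monocyte and macrophage markers to 171, 102, 116 and 108 CPM. In both, HSC did not overlap any other gate. The mitochondrial share of UMIs was 3.31% to 3.69% in HSC, above MPP2 (2.84% to 2.97%) and MPP3 (3.00% to 3.25%), and overlapped MPP4. The part of these differences in the gate results was not tested. The MPP3 gate held 64 to 143 cells per library. These gates were settled after the data were seen, when a further gate marker was dropped.

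Egr1 was highest in the HSC gate. In the order Control male, Control female, Ezh2 KO male, Ezh2 KO female, Jarid2 KO male and Jarid2 KO female, it was at 63.5, 39.5, 85.3, 56.5, 77.5 and 61.9 CPM in HSC. The same libraries held 33.8, 21.3, 62.3, 28.8, 41.8 and 33.8 CPM in MPP4. In 6 of 6 libraries HSC was above each of the other 3 gates, and over all libraries the HSC values did not overlap those of MPP2 but overlapped those of MPP3 and MPP4. The log2 difference from HSC was 1.27 ± 0.14 over MPP2 (edgeR adjusted p = 1.48e-07), 0.85 ± 0.17 over MPP3 (adjusted p = 0.000461) and 0.78 ± 0.13 over MPP4 (adjusted p = 3.17e-05), with library as a block (SE, n = 6 libraries). All 3 calls were kept under all 11 alternatives, though without B-like cells the value over MPP2 was 0.74.

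Against MPP2, HSC was higher in 8 of 10 members, where 59.0% of all genes were called in either direction. Beside Egr1 these were Nr4a1 (1.16 ± 0.21), Fosb (1.07 ± 0.20), Junb (1.02 ± 0.14), Fos (0.72 ± 0.18), Klf6 (0.49 ± 0.10), Jund (0.39 ± 0.09) and Jun (0.31 ± 0.09), each higher in 6 of 6 libraries. Atf3 and Klf4 were not called. Nr4a1 averaged 10.8 CPM in HSC and 4.60 CPM in MPP2. Without B-like cells 9 of 10 were higher, Klf4 joining at 1.35, and the value of Fos was 0.32, of Junb 0.75, of Fosb 0.72 and of Jund 0.695. The share of all genes called without B-like cells is not given here. Klf4 rested on few molecules, with 3 to 56 UMIs per library in the MPP2 gate before those cells were left out. The summed cycling markers also differed, at a median of 527 CPM in HSC and 2016 CPM in MPP2, and their part was not tested.

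Against MPP4, where 43.5% of all genes were called, the members split. Egr1, Fosb (0.67 ± 0.19) and Jund (0.35 ± 0.09) were higher in HSC in 6 of 6 libraries, and Nr4a1 (-0.53 ± 0.17; edgeR adjusted p = 0.0135) and Klf4 (-0.96 ± 0.34; edgeR adjusted p = 0.0253) were lower. Fosb averaged 134 CPM in HSC and 83.3 CPM in MPP4. Nr4a1 was lower in HSC in 5 of 6 libraries and was not called without the female Control library. Klf4 in MPP4 was at 13.1 and 12.3 CPM in the female Control and Ezh2 KO libraries and between 1.69 and 3.47 CPM in the other 4. HSC was lower than MPP4 in 4 of 6 libraries, and the call was lost without any 1 of the 3 female libraries, with gates split at the median (-0.72; edgeR adjusted p = 0.0761) and with three-marker gates (-0.45; edgeR adjusted p = 0.231), in which HSC and MPP2 cells are not CD135 high and MPP3 and MPP4 cells are also CD48 high. Fos, Jun and Junb differed by -0.00, -0.02 and -0.03.

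Against MPP3, where 35.4% of all genes were called, Egr1 and Jund (0.23 ± 0.09) passed. The Jund call was lost under 7 of 11 alternatives, among them leaving out either Control library, the female Ezh2 KO library or the male Jarid2 KO library. B-like cells made up 6.56% to 31.2% of the MPP3 gate by library. Without them Junb was lower in HSC than in MPP3 (-0.44; edgeR adjusted p = 0.00382) and Jund was not called (0.18; edgeR adjusted p = 0.152). Junb was at 192 and 190.5 CPM in the MPP3 gate of the Jarid2 KO libraries and at 94.4 to 156 CPM in the other 4, from few cells.

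**Figure D3:**
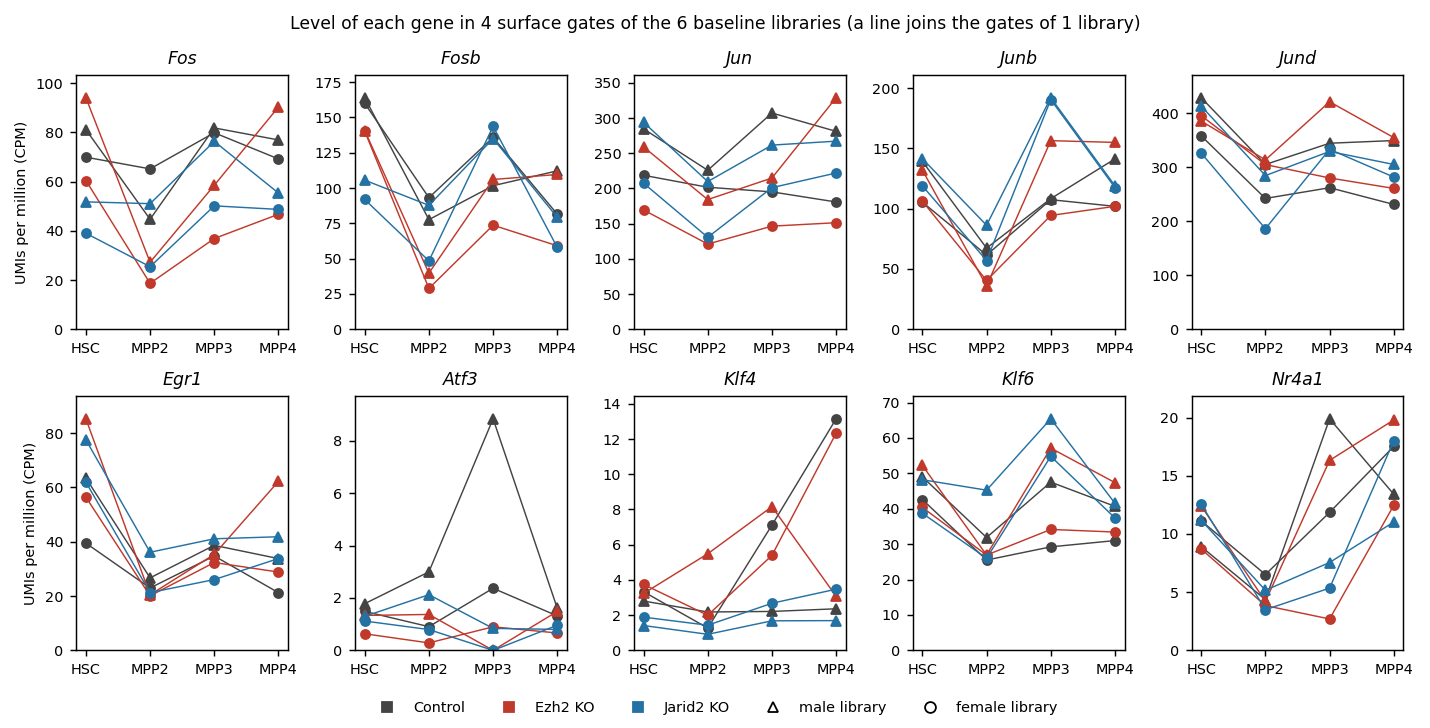
Level of each gene in CPM (vertical axis, from 0) in the HSC, MPP2, MPP3 and MPP4 gates of the 6 baseline libraries, with a line for each library and colour and marker for genotype and sex. Egr1 lies highest in HSC in 6 of 6 libraries, and Klf4 stands out in MPP4 of the female Control and Ezh2 KO libraries at 13.1 and 12.3 CPM.

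The related genes differed between gates in both directions, at shares to be read against the 59.0% of all genes called between HSC and MPP2 and the 43.5% between HSC and MPP4. Against MPP2, 13 of 23 feedback genes were higher in HSC and 5 lower, and of 21 other immediate-early genes 9 were higher and 6 lower. Against MPP4, 12 and 5 feedback genes and 4 and 8 other immediate-early genes were higher and lower. The 15 of 21 and 12 of 21 other immediate-early genes called are not set apart from all genes by these counts. Dusp4, a nuclear MAP kinase phosphatase, was higher in HSC than in MPP2 (3.03 ± 0.25) and MPP4 (1.66 ± 0.19), and Gadd45g was higher in HSC than in MPP3 (1.98 ± 0.26) and MPP4 (2.68 ± 0.16). Maff was higher in HSC than in MPP2 (2.32 ± 0.21), and Btg2 was lower in HSC than in MPP4 (-1.64 ± 0.12). Batf3, an AP-1 family factor of dendritic cells, was lower in HSC than in each other gate, by -4.30 ± 0.94 against MPP2.

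Within gates the genotypes were compared again among cells gated on the same surface markers. In the HSC gate, Fos and Fosb were lower in Jarid2 KO than in Ezh2 KO. Fos was at 51.8 and 39.0 CPM in Jarid2 KO against 94.1 and 60.4 CPM in Ezh2 KO, without overlap, a difference of -0.79 ± 0.11 (SE, n = 2 per group; edgeR adjusted p = 0.0321). Fosb was at 106 and 91.9 CPM against 141 and 140 CPM, a difference of -0.55 ± 0.07 (edgeR adjusted p = 0.0258), and Control HSC held 164 and 160 CPM. The Fosb call was kept under all 3 alternatives tried within gates, and that of Fos was lost with gates split at the median (edgeR adjusted p = 0.112). Cells of the HSC gate still differed in marker sums between the knockouts. Stem markers were at 2622 and 2526 CPM in Jarid2 KO against 1952 and 2136 CPM in Ezh2 KO, B markers at 31.4 and 33.6 against 159 and 83.5 CPM, and Cycling markers at 417 and 508 against 685 and 547 CPM, each without overlap. The heat shock sum was also lower in both Jarid2 KO libraries, and the mitochondrial share of UMIs was 3.48% and 3.46% against 3.38% and 3.35%. Their part in the Fos and Fosb differences was not tested. Pooled over the 4 gates, 5.50% of all gene tests were called between the knockouts. Against Control no member was called in the HSC gate in either knockout. For Jarid2 KO edgeR called no gene at all there, with 996 at an unadjusted p under 0.05.

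Elsewhere the calls within gates were few. In MPP4, Klf4 was lower in Jarid2 KO than in Ezh2 KO (-1.50 ± 0.27; edgeR adjusted p = 0.0316), which was lost with gates split at the median and with three-marker gates. Stem markers in MPP4 were at 1151 and 1531 CPM in Jarid2 KO against 914 and 984 CPM in Ezh2 KO, Monocyte and macrophage markers were lower in both Jarid2 KO libraries, and their part was not tested. In MPP2, Fosb was lower in Ezh2 KO than in Control (-1.22 ± 0.24), the 1 member called between Ezh2 KO and Control in any gate, where 3.57% of all gene tests were called. Between the knockouts in MPP2, Junb was higher (0.81 ± 0.17) and Jund lower (-0.50 ± 0.13) in Jarid2 KO. All 3 MPP2 calls were lost without B-like cells, which made up 86.8% and 67.1% of that gate in Ezh2 KO. Without those cells Egr1 was higher in Ezh2 KO than in Control by 0.84 (edgeR adjusted p = 0.0437) and lower in Jarid2 KO than in Ezh2 KO by a difference of -0.73 (edgeR adjusted p = 0.0205), where with them it had differed by -0.16 and 0.38. Jarid2 KO had no called member against Control in any gate, where 0.457% of all gene tests were called, and MPP3 had none in any contrast.

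The sex difference appeared within gates too. In MPP4, Fosb (-0.60 ± 0.09), Jun (-0.67 ± 0.13), Jund (-0.38 ± 0.08), Egr1 (-0.71 ± 0.13) and Klf6 (-0.35 ± 0.07) were lower in females. Klf4 was higher in females (1.95 ± 0.22). Pooled over the 4 gates, 1.49% of all gene tests were called. The share in MPP4 alone is not given here, so these calls describe the members only. Klf4 in MPP4 was at 2.36, 3.07 and 1.69 CPM in males and 13.1, 12.3 and 3.47 CPM in females, without overlap. In this gate heat shock genes summed to 4769 to 4972 CPM in males and 5150 to 5513 CPM in females and B markers to 148 to 372 and 98.7 to 119 CPM, without overlap, and their part was not tested. The calls of Klf4, Jund and Klf6 were lost with three-marker gates, and that of Klf6 also with median gates. In the HSC gate Jun was lower in females (-0.50 ± 0.06; edgeR adjusted p = 0.0363), at 285, 259 and 294 CPM in males against 219, 169.5 and 208 CPM in females, a call lost with median gates. No member was called by edgeR between sexes in MPP2 or MPP3, but in MPP2 without B-like cells Jun (-0.65), Junb (-0.51) and Egr1 (-0.87) were lower in females. The share of all genes called in that fit is not given here.

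Transcript classes, named from marker genes of clusters, describe the members in both experiments. The members and the pathway lists were left out of the genes that formed the clusters, but the classes come from the same cells and libraries, so levels between them are a description. Among the classes plotted, Stem-like cells had the highest mean Egr1 in both experiments, at 77.6 ± 20.7 CPM (SD, n = 6) at baseline and 43.9 ± 8.19 CPM (SD, n = 5) after transplantation. After transplantation Basophil and mast-like cells held 40.6 ± 13.8 CPM of Egr1 (SD, n = 5), within the spread of Stem-like cells. Egr1 was at 20.1 ± 10.9 CPM in baseline and 1.23 ± 0.384 CPM in transplanted Myeloid-like cells. Fosb was at 196 ± 54.7 CPM in baseline Dendritic-like, 170 ± 81.4 CPM in T and innate lymphoid-like and 166 ± 41.5 CPM in Stem-like cells, within their spread. It was at 65.9 ± 23.7 CPM in Lymphoid-primed-like, 33.8 ± 30.1 CPM in Myeloid-like and 8.39 ± 5.70 CPM in Erythroid-like cells. After transplantation Fosb was at 178 ± 17.2 CPM in Stem-like and 10.7 ± 2.88 CPM in Myeloid-like cells, whose library values did not overlap.

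Stem-like cells were not the highest class for every Jun family gene. Jund was at 506 ± 87.2 CPM in baseline T and innate lymphoid-like and 488 ± 51.6 CPM in Stem-like cells, within their spread, at 255 ± 39.8 in Lymphoid-primed-like and 254 ± 44.6 in B-like cells, which did not differ beyond their spread, at 158 ± 15.9 in Cycling-like, 133 ± 18.1 in Myeloid-like and 86.6 ± 17.9 CPM in Erythroid-like cells (SD, n = 6). Junb was at 236 ± 79.5 CPM in T and innate lymphoid-like, 209 ± 20.5 CPM in Dendritic-like and 175 ± 21.9 CPM in Stem-like cells, with overlapping libraries. It was at 109 ± 20.7 in Lymphoid-primed-like and 49.1 ± 8.48 CPM in Cycling-like cells, whose libraries lay below the Stem-like ones without overlap. Jun was at 294 ± 63.5 CPM in Stem-like, 203 ± 53.4 in Lymphoid-primed-like and 156 ± 33.5 CPM in Cycling-like cells, with overlapping libraries. After transplantation Jund was at 402 ± 76.2 CPM in Stem-like and 78.3 ± 10.7 CPM in Myeloid-like cells (SD, n = 5), without overlap.

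Nr4a1 was at 23.2 ± 13.0 CPM in baseline Dendritic-like, 18.2 ± 6.89 CPM in Lymphoid-primed-like and 14.1 ± 2.85 CPM in Stem-like cells, within their spread, and at 2.27 ± 1.66 CPM in Myeloid-like cells. Fos was highest of the named classes in baseline Dendritic-like cells, at 197 ± 79.3 CPM. It was at 87.2 ± 33.2 CPM in Stem-like cells, 55.4 ± 22.9 in Lymphoid-primed-like and 41.1 ± 23.6 CPM in Myeloid-like cells, and these 3 overlapped. After transplantation Fos was at 105 ± 8.94 CPM in Stem-like, 48.2 ± 6.95 in Lymphoid-primed-like and 10.4 ± 1.71 CPM in Myeloid-like cells, without overlap between the 3.

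Dendritic-like cells also had the highest mean Klf4, Klf6 and Atf3 of the named classes. Klf4 was at 32.2 ± 10.1 CPM in baseline Dendritic-like cells against 3.70 ± 1.48 CPM in Stem-like cells, and at 98.5 ± 50.3 against 3.24 ± 1.40 CPM after transplantation. Klf6 was at 171 ± 17.3 against 62.4 ± 12.1 CPM, and Atf3 at 29.1 ± 12.9 against 1.48 ± 0.508 CPM at baseline. The Dendritic-like class held 12 to 57 cells per library at baseline and 16 to 40 after transplantation, and the T and innate lymphoid-like class 28 to 97 at baseline.

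**Figure D4:**
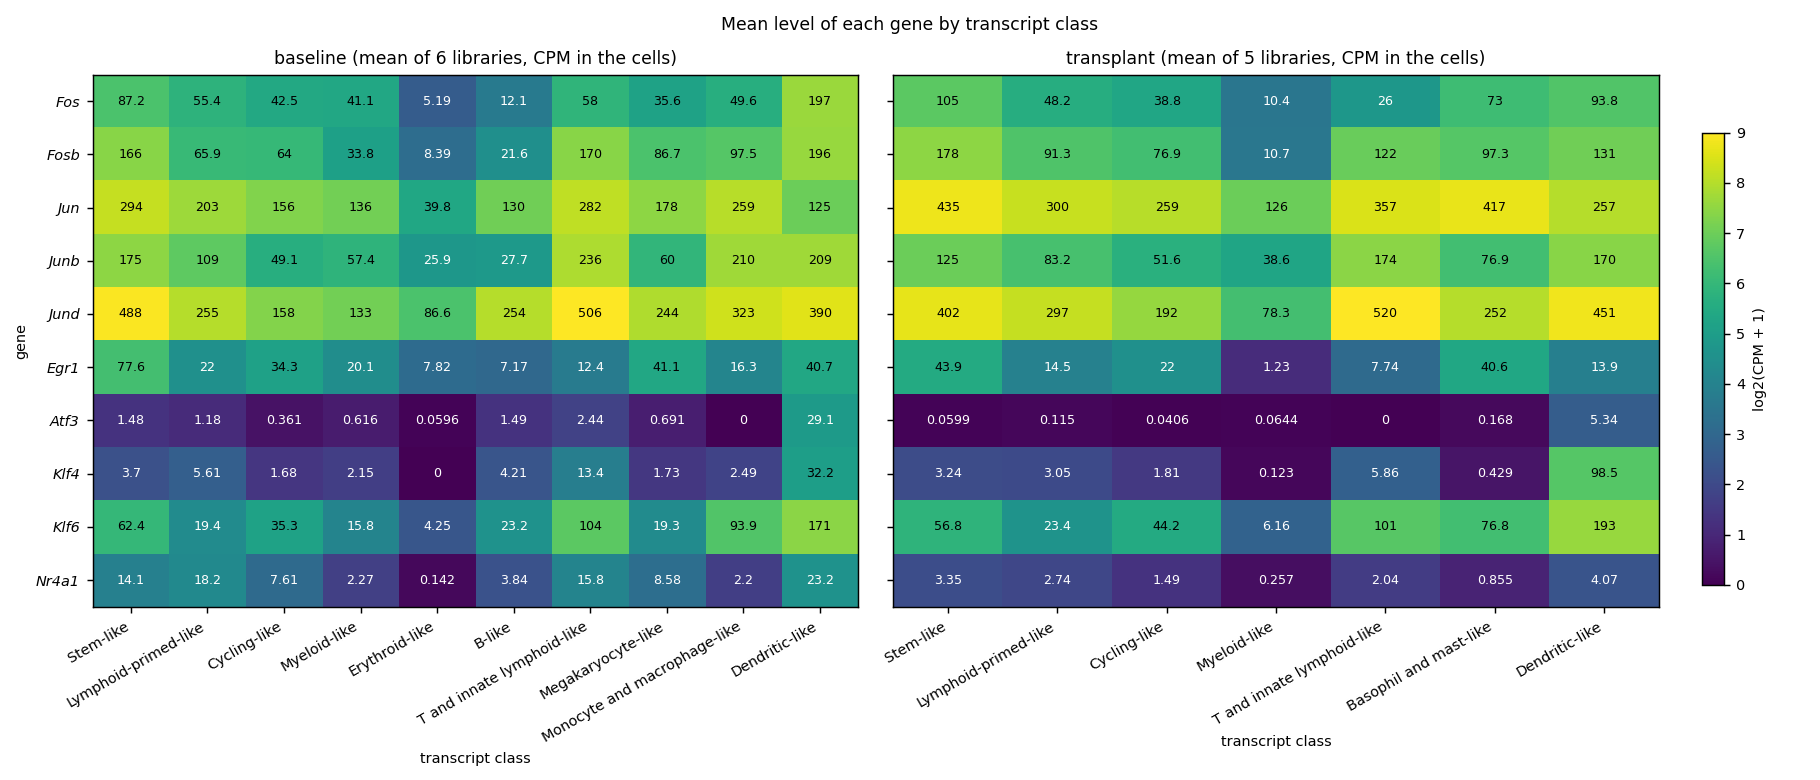
Mean level of each gene in CPM (printed in each cell, with colour on a log2(CPM + 1) scale) by transcript class, averaged over 6 baseline and 5 transplant libraries. Stem-like cells have the highest mean Egr1 of the classes shown, close to Basophil and mast-like cells after transplantation (43.9 and 40.6 CPM), and Dendritic-like cells the highest mean Klf4, Klf6 and Atf3.

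Within the transplanted classes the genotype differences were tested for 5 classes with at least 50 cells in each library (Stem-like, Cycling-like, Lymphoid-primed-like, Myeloid-like, and Basophil and mast-like). In Stem-like cells, Klf6 was higher in Ezh2 KO, at 69.9 and 71.3 CPM against 41.2 CPM in Control, a difference of 0.72 ± 0.13 (SE; edgeR adjusted p = 0.0361), where 1.49% of all gene tests in the 5 classes were called. Jarid2 KO Stem-like cells held 45.3 and 56.6 CPM of Klf6 and were lower than Ezh2 KO (-0.49 ± 0.10; edgeR adjusted p = 0.0381), as they were in Junb (-0.56 ± 0.11; edgeR adjusted p = 0.0291), where 3.69% of all gene tests were called. Stem-like Junb was at 96.0 and 118 CPM in Jarid2 KO, 149.9 and 163 CPM in Ezh2 KO and 100.2 CPM in Control. Junb was also lower in Cycling-like cells of Jarid2 KO (-0.56 ± 0.10; edgeR adjusted p = 0.0241). All 4 calls were lost when either Ezh2 KO library was left out, and those of Cycling-like Junb and of Stem-like Klf6 between the knockouts also without the first Jarid2 KO library and with DESeq2. No member was called in Jarid2 KO against Control in any class, where 0.104% of all gene tests were called.

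Single cells were compared after thinning each to 5000 UMIs, which left out 273 to 721 shallower cells per library. The median share of cells with at least 1 Jund UMI was 69.5% at baseline and 58.5% after transplantation, and for Jun it was 56.5% and 57.9%. For Egr1 it was 15.2% and 7.85%, and for Nr4a1 5.29% and 0.940%. Without thinning, the medians for Egr1 were 26.0% and 14.97%. No cell class here is known to lack these genes, so the share that free RNA gives was not measured.

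Members varied together from cell to cell only weakly. The median Spearman rho within libraries was 0.251 for Fos with Fosb in both experiments, 0.239 at baseline and 0.288 after transplantation for Fosb with Jund, and 0.238 and 0.279 for Jun with Jund. Cells of 1 library share its depth and handling, so these values are a description. The pair values come from the thinned cells. The ranking that follows used depth-normalised counts of all kept cells without thinning, so the pair values and the ranking are not like measures. Among 8833 genes of at least 10 CPM, those most like the summed members by mean rho over the 11 libraries were Malat1 (0.479), Txnip (0.393), Pim1 (0.324), Gimap6 (0.322), Zfp36 (0.313), Zbtb20 (0.304), Ltb (0.304), Btg2 (0.302), Ctla2a (0.300) and Zfp36l2 (0.295), against a median of -0.0244 over all these genes. Zfp36, Btg2 and Zfp36l2 are themselves on the feedback and other immediate-early lists, and Malat1 is a nuclear noncoding RNA. Fos, Fosb, Jun, Junb and Jund, with the most UMIs, carry most of the sum.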

How the data were processed

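The labels assign 11 gene-expression libraries to genotype and experiment. The authors deposited raw UMI counts per gene and cell. Per the file headers these came from Cell Ranger 7.2.0 (baseline) and 6.1.2 (transplant). The submitters' processing notes name Cell Ranger 3.1.0, Seurat 3.0, Partek and mm10. Treatment of intronic reads is not given in the sources used here. All matrix columns were mapped to samples.

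Cells were kept with at least 1000 UMIs, 500 genes and at most 10% mitochondrial UMIs, and the highest Scrublet scores (scanpy 1.11.5), up to 0.8% per 1000 barcodes, were removed because the automatic threshold marked few cells. Counts were summed per library, gate or class. Genes passing filterByExpr were tested with edgeR 4.0.16 (R 4.3.3; TMM, two-sided quasi-likelihood test, Benjamini-Hochberg, FDR 0.05), with sex, which the replicate number stands for, in the model at baseline (sex differences over genes correlated at 0.203 to 0.746 between genotypes) and library in the model between gates. Standard errors are the log2 difference divided by the root of F. DESeq2 1.42.0 was an alternative. On simulated counts the fit recovered known fold changes, but the share of false calls exceeded the threshold. Calls with an adjusted p just under 0.05 are to be read with this limit. Depth limits Atf3 most, which had 5 UMIs in the transplanted Control against 11005 for Jund.

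Gates are quantiles of centred log-ratio antibody counts. Clusters (Leiden, resolution 1) of Control cells were named from at least 3 markers raised 1.5-fold with a median log2 of 1, and other cells were assigned to them. Levels were set at a common 1000000 UMIs. Named genes are the members, Ezh2, Jarid2, called genes of the pathway lists (at most 5 per contrast, by size) and the 10 genes most correlated with the members. The members, the lists and the tests were chosen with earlier results of these data known. After these data were seen, a further gate marker was dropped, the naming threshold was raised from 0.5, and gates without B-like cells and the CRE half-site were added.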

Additional observations from a re-analysis of the deposited data

How the results depend on the processing

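Counts of members called by edgeR changed as follows. The share of all genes called under each alternative is not given in this section, so the counts describe the members only. DESeq2 also called more of all genes wherever its share is given above, as between sexes (5.37% against 0.600% by edgeR). With DESeq2, 2 instead of 1 were called in baseline Ezh2 KO, 4 instead of 0 in Jarid2 KO, 3 instead of 1 between the knockouts and 8 instead of 1 between sexes. After transplantation DESeq2 called 3 instead of 1 in Ezh2 KO and 5 instead of 3 between the knockouts, and within transplanted classes 2 instead of 1 in Ezh2 KO and 1 instead of 3 between the knockouts. Between the HSC and MPP3 gates of the baseline libraries it called 1 instead of 2. Among genes of at least 10 CPM the counts were 0 between the baseline knockouts, 3 between sexes, and 0 in transplanted Ezh2 KO and between the transplanted knockouts. With no filter on low counts 1 member was called in baseline Jarid2 KO and 5 between sexes. With the strict cell filter 2 were called between sexes, 0 in transplanted Ezh2 KO and 0 between the transplanted knockouts. Male cells only gave 0 in both of these transplant comparisons. Leaving out 1 library at a time gave 0 to 1 in baseline Ezh2 KO, 0 to 1 between the baseline knockouts, 1 to 2 between sexes, 0 to 3 in transplanted Ezh2 KO, 0 to 3 between the transplanted knockouts, 1 to 2 between HSC and MPP3, 3 to 5 between HSC and MPP4, and within classes 0 to 4 in Ezh2 KO, 0 to 1 in Jarid2 KO and 0 to 4 between the knockouts. A lone library left in a group is assumed to vary like the others.

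The replicate number at baseline is the sex, and without this replicate block 0 members were called in Ezh2 KO and 0 between the knockouts. The transplant numbers did not pair the libraries (r = 0.0245 between same-numbered knockout libraries), and with them as a replicate block 1 member instead of 3 was called between the knockouts.

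Within gates, median gates gave 3 called members in Ezh2 KO, 1 in Jarid2 KO and 3 between the knockouts. Three-marker gates gave 2 in Jarid2 KO, 8 between the knockouts and 4 between sexes, with the shares of all genes called not given here. They turned the HSC minus MPP4 difference of Jun to 0.211. Both they and the gates of the main results were settled after seeing the data. Leaving out B-like cells, also chosen after seeing the data, turned values within MPP2: Egr1 to 0.844 and Dusp6 to -0.0817 in Ezh2 KO against Control, and Egr1 to -0.729, Jund to 0.147, Csrnp1 to 0.376 and Gadd45b to 0.0346 between the knockouts. The causes were not tested. Of 4412 values of single genes under alternatives, 4081 kept their direction and their side of the threshold, counting 216 changes of sign with no call in either fit, while 232 lost a call, 92 gained one and 7 reversed. Atf3, with 5 UMIs in the transplanted Control, was limited by counting.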
